A study of Homo sapiens with 7 samples.

Results

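The genes described are skeletal and mesenchymal transcription factors, taken by their names in the deposited probe tables: RUNX2, TWIST1, TWIST2, MSX2, SOX9, DLX5, DLX6, PRRX1, SNAI2 and TBX3. Of these 10 genes, 9 had a probe of their own among the 24647 gene names measured, and DLX6, which had none, was left out. The 9 genes held 31 probes of 169544 on the larger array design and 15 on the smaller, and the probes fell in 10 windows of 250 kb.

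Replication timing was measured in 2 established human cell lines on 7 two-colour oligonucleotide arrays. U2OS is an adherent line from an osteosarcoma, a bone tumour of mesenchymal origin, and K562 is a suspension line from chronic myeloid leukaemia, a blood tumour. All cells were untreated apart from a 2 h pulse of 50 µM bromodeoxyuridine (BrdU), a thymidine analogue, after which 80000 cells were sorted by DNA content into early and late S phase. DNA that had taken up BrdU was recovered with an antibody, copied by whole-genome amplification, and marked with the dye Cy3 (early fraction) or Cy5 (late fraction). U2OS was hybridised on 4 arrays, 2 labelled manual and 2 labelled automated, and K562 on 3: new cell sorting method, old cell sorting method, and an array labelled 44k. The labels do not say whether arrays of a line came from separate cultures, so p-values measure the spread between these arrays, which may be technical. Each line is a single tumour-derived line and stands for no normal bone or blood cell.

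A genome is copied in domains, long stretches of neighbouring origins that fire at about the same time. Domains that are open and transcribed tend to be copied early in S phase and those packed as heterochromatin late, and genes that control development often lie in domains whose timing differs between cell types. The genes here act in the skeleton and its mesenchymal precursors. RUNX2 commits cells to bone and SOX9 to cartilage. MSX2, DLX5 and PRRX1 are homeobox factors of the limb and skull, TWIST1 and TWIST2 are basic helix-loop-helix factors that hold back bone formation, SNAI2 is a zinc finger repressor of epithelial genes, and TBX3 is a T-box repressor of limb and breast development.

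The sequences below show what the arrays read and what lies at the starts of these genes. MSX2 and TWIST2 probes are shown because the MSX2 pair carries a called difference and the TWIST2 pair differs between array designs. They are printed as on the array, hg19 positions given, with every CG in capitals.
MSX2 probe, chr5:174153419-174153478: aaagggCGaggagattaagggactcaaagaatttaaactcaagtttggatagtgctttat
MSX2 probe, chr5:174154841-174154900: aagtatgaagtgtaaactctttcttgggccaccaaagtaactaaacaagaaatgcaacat
TWIST2 probe on the larger design, chr2:239792232-239792291: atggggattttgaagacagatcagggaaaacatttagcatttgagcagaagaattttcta
TWIST2 probe on the array labelled 44k, chr2:239799268-239799327: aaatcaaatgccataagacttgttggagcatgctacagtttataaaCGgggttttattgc
These 60-base probes had a GC content of 35% to 36.7%.

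RefSeq promoters on build GRCh38.p14 matched 4 of the 9 genes, with 2 starts for RUNX2, and SOX9, TBX3, TWIST1, DLX5 and SNAI2 were not matched. The 250 bases before each start are shown because these genes, which range from early to late, differ there in CpG content. All are on the plus strand, with every CG in capitals. CG reads the same on both strands.
MSX2, chr5:174724332-174724581: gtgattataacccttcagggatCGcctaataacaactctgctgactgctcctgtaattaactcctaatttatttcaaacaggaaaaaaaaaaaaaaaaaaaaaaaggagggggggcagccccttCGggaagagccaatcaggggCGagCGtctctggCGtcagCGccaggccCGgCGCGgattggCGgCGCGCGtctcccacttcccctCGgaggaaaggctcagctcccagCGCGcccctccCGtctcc
PRRX1, chr1:170663881-170664130: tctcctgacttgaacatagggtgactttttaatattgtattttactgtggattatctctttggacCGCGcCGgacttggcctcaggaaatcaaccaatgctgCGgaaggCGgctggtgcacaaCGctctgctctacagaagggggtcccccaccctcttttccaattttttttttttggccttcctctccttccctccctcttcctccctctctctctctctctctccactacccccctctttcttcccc
TWIST2, chr2:238847835-238848084: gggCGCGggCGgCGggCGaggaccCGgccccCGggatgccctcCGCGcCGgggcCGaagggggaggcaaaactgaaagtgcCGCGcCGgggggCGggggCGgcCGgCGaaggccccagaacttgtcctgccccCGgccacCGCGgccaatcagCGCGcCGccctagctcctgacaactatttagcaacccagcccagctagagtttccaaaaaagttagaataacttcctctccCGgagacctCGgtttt
RUNX2 upstream start, chr6:45328080-45328329: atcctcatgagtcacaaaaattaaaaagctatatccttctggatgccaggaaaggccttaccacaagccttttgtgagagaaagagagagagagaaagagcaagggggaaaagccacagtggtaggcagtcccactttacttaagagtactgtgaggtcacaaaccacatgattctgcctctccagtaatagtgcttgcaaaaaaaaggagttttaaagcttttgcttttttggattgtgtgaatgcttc
RUNX2 downstream start, chr6:45422025-45422274: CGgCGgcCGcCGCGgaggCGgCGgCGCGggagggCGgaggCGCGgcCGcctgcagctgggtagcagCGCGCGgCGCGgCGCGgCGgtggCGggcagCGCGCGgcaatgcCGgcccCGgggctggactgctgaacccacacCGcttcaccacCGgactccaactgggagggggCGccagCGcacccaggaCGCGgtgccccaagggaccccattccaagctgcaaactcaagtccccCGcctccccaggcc
Over all 35116 RefSeq promoters the median number of CG in this stretch was 11, and 93.9% held at least 1. MSX2 held 17, PRRX1 6 and TWIST2 26. RUNX2 held 0 at its upstream start and 34 at its downstream start, the lowest and the highest of the 5. No relation of these numbers to timing was tested.

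Values are log2(early/late), the log2 ratio of the early to the late channel. The median probe of each array was set to 0, so a positive value is earlier and a negative value later than that probe. A window counted as called at a Benjamini-Hochberg adjusted p under 0.05 in limma, fitted across all windows with at least 3 probes on every array. The share of spots well above background was lowest in the late channel of the array labelled 44k (8.83%), the late channel of the second manual U2OS array (40.3%) and the early channel of the old-sorting K562 array (44.8%). Among the spots of the 9 genes, 13 of 31 on the old-sorting array were not well above background in the early channel, and in the late channel 9 of 15 on the array labelled 44k and 10 of 31 on the second manual array were not. Window values correlated at 0.931 to 0.990 over the 6 pairs of U2OS arrays, at 0.833 to 0.944 over the 3 K562 pairs and at 0.633 to 0.752 over the 12 pairs between lines. No slide held both lines, so slide and line cannot be told apart. As a check of the labels, the summed signal of both channels over 8 probes at CDKN2A, CDKN2B and MTAP, a region K562 is known to have lost, lay at -3.16 and -2.50 on the log2 scale relative to the array median on the larger K562 arrays. It lay at -1.49 over 6 probes on the array labelled 44k and between -0.93 and -0.48 on the U2OS arrays.

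Of the 9 windows that could be tested 3, those of MSX2, SOX9 and TBX3, replicated earlier in U2OS than in K562, with differences of -2.29 to -1.88 log2 units, K562 minus U2OS. Their size depended on the background treatment: with no background correction the differences were -1.32 at MSX2, -1.14 at SOX9 and -0.86 at TBX3, all still called. None of the 9 was called earlier in K562, and the lowest unadjusted limma p in that direction was 0.0949, at SNAI2. Over the genome 31.6% of 8912 windows were called, 14.3% of all windows as earlier in K562 and 17.3% as earlier in U2OS, so 3 called of 9 is close to the background share. The lines did not overlap in 3 of the 9 windows, beside 39% of all windows. The median difference of the 9 windows, K562 minus U2OS, was -0.30, beside -0.14 over all windows. What set the 9 windows apart in level was lateness: their median was -1.95 in K562 and -0.42 in U2OS, beside 0.14 and 0.08 for all windows.

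**Figure D1:**
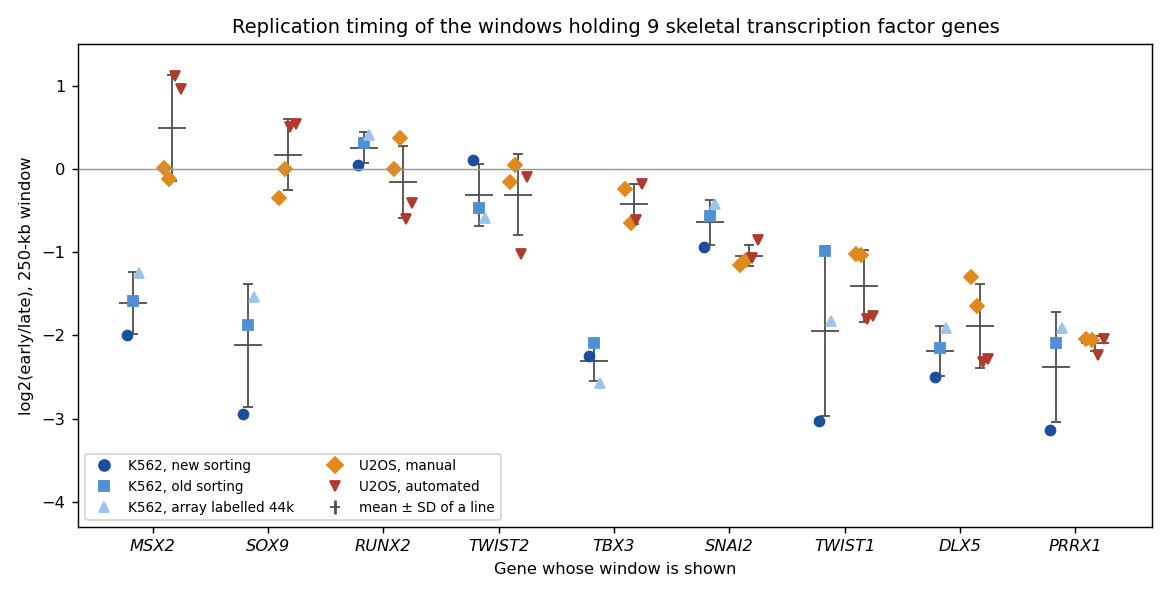
log2(early/late) of the 250-kb window holding each of 9 genes, with 1 point per array (3 K562 in blue, 4 U2OS in orange and red) and the mean ± SD of each line. The K562 and U2OS points lie apart at MSX2, SOX9 and TBX3, and they overlap at the other 6 genes.

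SOX9, the factor that starts cartilage formation and is needed in many other progenitors, had its probes at chr17:70120853-70122213 (hg19) in the window chr17:70000001-70250000. On the K562 arrays that window read -2.95 (new sorting), -1.87 (old sorting) and -1.54 (array labelled 44k). On the U2OS arrays it read -0.35 and 0.00 (manual) and 0.50 and 0.54 (automated). Every K562 array lay in the late range and below every U2OS array, while the U2OS arrays straddled the median probe. K562 averaged -2.12 ± 0.74 (SD, n = 3) and U2OS 0.17 ± 0.43 (SD, n = 4), and K562 minus U2OS was -2.29 with an SE of 0.36 (limma adjusted p = 0.00106). Ranked among all tested windows, the SOX9 window stood at percentile 12.8 in K562 and 51.4 in U2OS.

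The difference at SOX9 was part of a longer stretch towards higher coordinates. A run of 4 adjacent windows from 70000001 to 71000000 was called earlier in U2OS, 1000 kb in all, beside a median of 500 kb over the 705 such runs of the genome, of which 104 had at least 4 windows. The largest difference lay in the next window, chr17:70250001-70500000, at -3.14 with an SE of 0.25 (limma adjusted p = 3.89e-05), where K562 averaged -2.13 ± 0.45 (SD, n = 3) and U2OS 1.01 ± 0.13 (SD, n = 4). In the window 250 kb before the gene, both lines were late, at -1.73 ± 1.80 in K562 and -1.14 ± 0.44 in U2OS, and too few probes on the array labelled 44k left it untested. The gene thus lay within 250 kb of the place where the U2OS profile crossed from late to early, and on the K562 arrays the late domain ran 600 to 800 kb beyond the gene.

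The probes of SOX9 itself gave the same order with a smaller difference. K562 averaged -1.40 ± 0.52 (SD, n = 3) there and U2OS -0.26 ± 0.55 (SD, n = 4). The highest K562 array, at -1.05, lay just below the lowest U2OS array, at -1.02, and the difference of -1.14 (SE 0.39) did not pass the test (limma adjusted p = 0.0967, and 0.0482 without the first manual array).

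**Figure D2:**
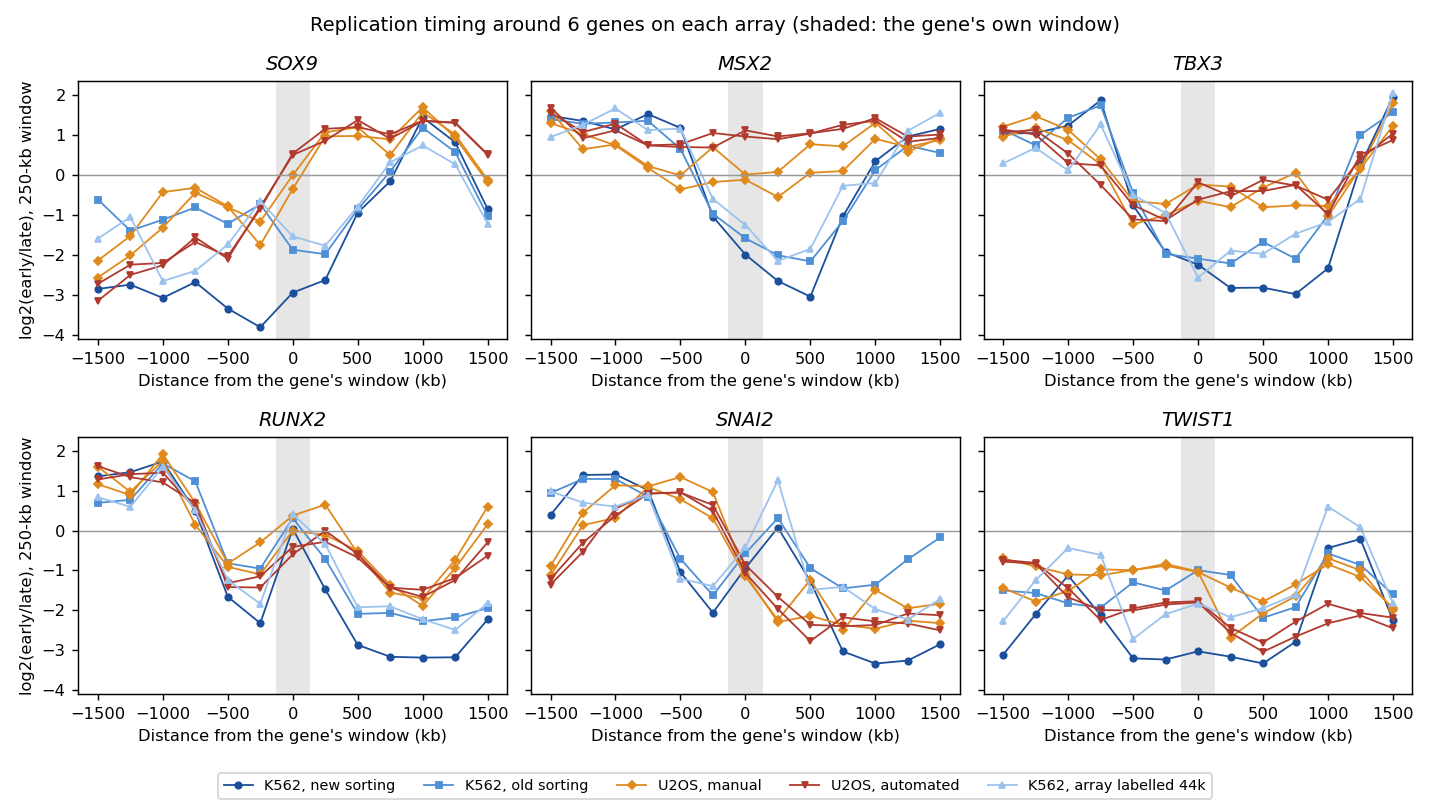
log2(early/late) in 250-kb windows against distance in kb from the window of each of 6 genes, towards higher coordinates on the right, with 1 line per array. Around SOX9, MSX2 and TBX3 the K562 lines (blue) run below the U2OS lines at and just beyond the gene. The SNAI2 panel shows the order of the lines turning over at the gene.

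MSX2, a homeobox repressor active in the growing skull and limb, lay in the window chr5:174000001-174250000. The K562 arrays read -1.995, -1.58 and -1.25 there (new sorting, old sorting, array labelled 44k). The U2OS arrays read 0.01 and -0.12 (manual) and 1.12 and 0.96 (automated). The lines did not overlap, and within U2OS the automated arrays were clearly the earlier pair. The means were -1.61 ± 0.37 (SD, n = 3) and 0.49 ± 0.64 (SD, n = 4), a difference of -2.10 with an SE of 0.35 (limma adjusted p = 0.00141), from percentile 26.5 of all windows in K562 to 57.1 in U2OS.

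MSX2 was also called on its own probes, at -2.21 with an SE of 0.52 (limma adjusted p = 0.0224). Of all 24647 gene names, 12.9% were called in that fit, 7.07% as earlier in U2OS. The 2 MSX2 probes printed above disagreed on the manual U2OS arrays, at -1.24 and -0.51 for the first and 0.72 and 0.08 for the second. The value of -0.51 is less certain, because its late channel was not well above background. On the automated arrays both were early, at 1.14 and 0.92 for the first and 2.31 and 1.69 for the second. In K562 both were late, between -2.59 and -0.45, and the highest value, on the array labelled 44k, was likewise dim in the late channel. The call on probes was lost (adjusted p 0.0595 to 0.0839) when either larger K562 array or the second automated array was left out.

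Around MSX2 the K562 profile dipped and rose again within a short distance. On the K562 arrays the gene sat in a late domain of 1300 to 1400 kb between early flanks, with its lowest mean, -2.35 ± 0.62 (SD, n = 3), 500 kb beyond the gene's window. A domain here is the unbroken run of 100-kb windows, smoothed over 5 windows, that keep the sign of the gene's own window. Both automated U2OS arrays stayed early across the whole region, in a domain of 11100 kb. Of the manual arrays, the first was early over 3800 kb, ending at the gene, and the second was late over 1300 kb. The window next to that of MSX2, chr5:174250001-174500000, was called too, at -2.62 (SE 0.38, limma adjusted p = 0.000608).

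TBX3, a repressor needed for limb, heart and mammary development, lay in chr12:115000001-115250000. In K562 the arrays read -2.25, -2.10 and -2.57 in the same order, and in U2OS they read -0.24 and -0.64 (manual) and -0.62 and -0.18 (automated). Both handling groups of U2OS covered the same range, and no U2OS value came near a K562 value. The means were -2.31 ± 0.24 (SD, n = 3) and -0.42 ± 0.24 (SD, n = 4), and the difference was -1.88 with an SE of 0.23 (limma adjusted p = 0.000231). TBX3 went from percentile 7.89 to percentile 41.4 of all windows. Its own probes gave -2.10 (SE 0.42, limma adjusted p = 0.0109), from -2.55 ± 0.27 (SD, n = 3) to -0.44 ± 0.75 (SD, n = 4). Of the 2 probes, 1 was dim in both channels on the first manual array (0.84) and on the array labelled 44k (-2.82). It was dim in the early channel on the old-sorting array (-2.27). With no background correction the difference on probes was -0.996 (limma adjusted p = 0.0420).

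TBX3 differed from SOX9 and MSX2, where the automated arrays were early, in that its window lay below 0 on every U2OS array. On every array of both lines the gene lay in a late domain, of 1700 to 1800 kb in K562 and 1300 to 2000 kb in U2OS, and the width did not differ beyond the spread (exact two-sided permutation p = 0.914). Inside that domain the depth differed: its mean value ranged from -2.26 to -1.50 on the K562 arrays and from -0.75 to -0.50 on the U2OS arrays. A window 500 kb beyond the gene was called in the same direction at -1.75 (SE 0.30, limma adjusted p = 0.00175). On the other side, the window of TBX5, its neighbour in the T-box family, stood at -1.62 ± 0.58 (SD, n = 3) in K562, against a U2OS mean of -1.005 ± 0.20 (SD, n = 4), and did not pass (limma adjusted p = 0.135), and the window of RBM19 was called earlier in K562 by 1.46 (SE 0.25, limma adjusted p = 0.00148).

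RUNX2, the factor without which no bone forms, was measured by 15 probes over 157 kb (chr6:45357886-45515349) and neither its main 250-kb window nor its probe average passed the test between the lines. Its main window, chr6:45250001-45500000, read 0.04, 0.31 and 0.41 on the K562 arrays and 0.00, 0.38, -0.60 and -0.41 on the U2OS arrays (manual first). The highest values of the lines were alike, and the automated U2OS arrays were the lowest. The means were 0.25 ± 0.19 (SD, n = 3) and -0.16 ± 0.43 (SD, n = 4), with a difference of 0.41 (SE 0.27, limma adjusted p = 0.286). Of the 15 probes, 12 were above 0 on each larger K562 array, 10 and 11 on the manual U2OS arrays and 3 on each automated array. Some RUNX2 spots were dim in the late channel: 3 of 15 on the new-sorting array, 4 and 7 on the manual arrays and 0 on the automated arrays. All 3 on the array labelled 44k were dim there, 1 with a substitute value. On the old-sorting array 3 of 15 were dim in the early channel. The highest value of each line thus comes from an array with many dim RUNX2 spots. The second RUNX2 window, chr6:45500001-45750000, had only 2 probes on the array labelled 44k and was not tested. There the K562 arrays read -1.48, -0.71 and -0.34 and the U2OS arrays -0.11, 0.65, -0.004 and -0.28 (manual first). Every K562 array thus lay below every U2OS array, the closest by a small margin. The lines did not overlap in 39% of all tested windows. In windows of 500 kb, the one that takes in the end of RUNX2 and its neighbours to 46000000 was called earlier in U2OS, at -1.44 (SE 0.25, limma adjusted p = 0.0028), and the one before it, which holds most RUNX2 probes, was not (-0.22, limma adjusted p = 0.63).

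RUNX2 in K562 formed a local maximum between late neighbours. The window 250 kb before it read -1.70 ± 0.69 and the window 500 kb beyond it -2.29 ± 0.50 (SD, n = 3). In U2OS the same windows read -0.99 ± 0.49 and -0.59 ± 0.07 (SD, n = 4), so the profile was flatter. The window 500 kb beyond, which holds CLIC5, was called earlier in U2OS at -1.71 (SE 0.26, limma adjusted p = 0.00079), as were the 4 windows after it. With values this close to 0 the width of the domain at RUNX2 varied widely. It ran from 800 to 2400 kb in K562 and from 600 to 7300 kb in U2OS. Its sign, that of the smoothed value, was late on 6 of the 7 arrays and early on the second manual array. On the K562 arrays the smoothed value was -0.69, -0.17 and -0.03 (new sorting, old sorting, array labelled 44k). The main RUNX2 window, unsmoothed, read above 0 on the same arrays, at 0.04, 0.31 and 0.41. The late domain in K562 thus has the sign of the smoothed profile and not that of the main window.

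DLX5 and PRRX1 replicated late in both lines. DLX5, a homeobox activator of bone matrix genes, read -2.50, -2.15 and -1.91 in K562 and -1.30, -1.65, -2.32 and -2.29 in U2OS in its window chr7:96500001-96750000. The K562 values fell inside the U2OS range except the lowest, and the difference of -0.30 (SE 0.30) did not pass (limma adjusted p = 0.494). PRRX1, a homeobox marker of early limb mesenchyme, had the latest mean of the 9 windows in both lines, -2.38 ± 0.66 (SD, n = 3) and -2.10 ± 0.09 (SD, n = 4), in chr1:170500001-170750000. Its K562 arrays read -3.14, -2.09 and -1.91 and its U2OS arrays between -2.23 and -2.04, so the U2OS values lay within the K562 range, with a difference of -0.28 (SE 0.30, limma adjusted p = 0.513). Many PRRX1 spots within that window were dim in the early channel. Of its 6 spots, 5 were not well above background on the old-sorting array, 1 on the new-sorting array, 3 on the first manual array and 4 on the second. The software put a substitute value in place of the early signal at 3 of them on the old-sorting array and 1 on the second manual array. Those spot ratios are bounds.

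The late domains of DLX5 and PRRX1 had like lengths in both lines on all arrays but the second manual array at DLX5. At PRRX1 they spanned 2800 to 3000 kb in K562 and 2600 to 2800 kb in U2OS (exact two-sided permutation p = 0.171). At DLX5 they spanned 4700 to 4900 kb in K562 and 4700 kb on 3 U2OS arrays, with 3600 kb on the second manual array (exact two-sided permutation p = 0.229). Towards higher coordinates all 7 DLX5 domains ended 700 to 900 kb from the gene's 100-kb window. At PRRX1 the windows 500 and 750 kb beyond the gene were called earlier in U2OS, at -1.23 (SE 0.26, limma adjusted p = 0.00531) and -1.001 (SE 0.22, limma adjusted p = 0.00712), while the gene's own window was not.

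**Figure D3:**
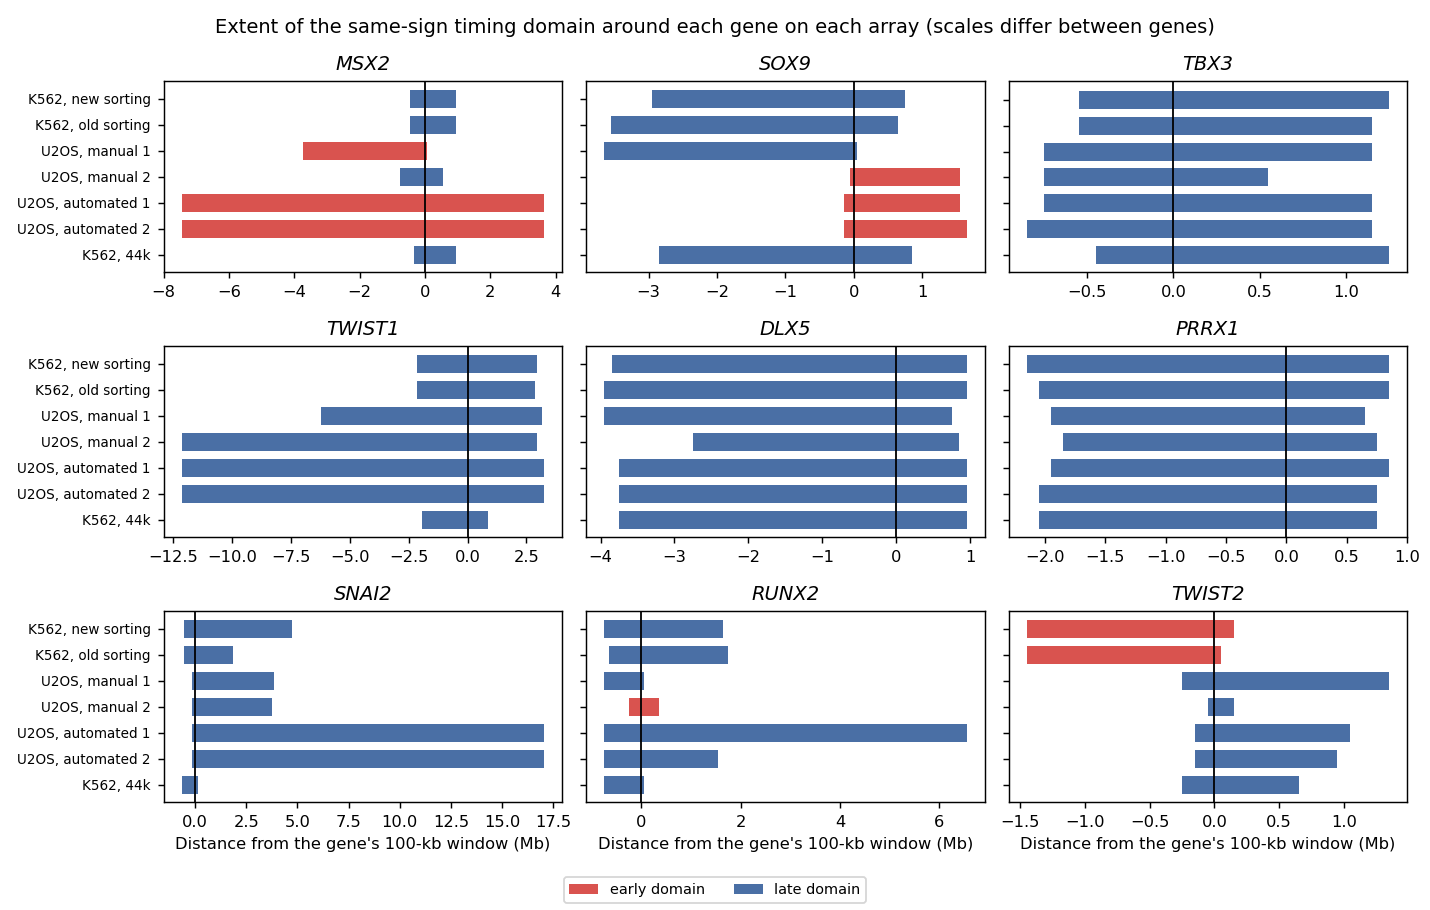
Extent of the same-sign domain around each of 9 genes on each of 7 arrays, in Mb from the gene's 100-kb window (early domains in red, late domains in blue, a separate scale for each gene). The late domains of PRRX1, DLX5 and TBX3 have like lengths in both lines, that of TWIST1 is longer on all 4 U2OS arrays, and the bars of SOX9 and MSX2 change colour between lines on 3 of 4 U2OS arrays.

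TWIST1 and TWIST2 are close relatives with similar neighbours, TWIST1 beside HDAC9 and TWIST2 beside HDAC4, and their timing was unlike. TWIST1 was late: in chr7:19000001-19250000 the K562 arrays read -3.03, -0.99 and -1.83 and the U2OS arrays -1.03, -1.04, -1.80 and -1.77. The old-sorting K562 array was as high as the manual U2OS arrays, and the difference of -0.54 (SE 0.44) did not pass (limma adjusted p = 0.391). Without the old-sorting array it was -1.02 and passed (limma adjusted p = 0.0442), and without the new-sorting array it was -0.0023 (limma adjusted p = 0.996). The single TWIST1 probe, chr7:19155359-19155418, averaged -2.92 ± 0.42 (SD, n = 3) on the K562 arrays and -1.70 ± 0.95 (SD, n = 4) on the U2OS arrays, and did not pass (limma adjusted p = 0.161). The highest K562 array, at -2.67, lay just below the lowest U2OS array, at -2.64. The old-sorting value, -2.68, is a bound, because a substitute value replaced its dim early signal. The difference of -1.21 became -0.42 with normexp and -0.04 with no background correction. Of all gene names, 28.3% had lines that did not overlap, and of the 9 genes 4 had.

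TWIST2 lay near the median probe. Its window chr2:239750001-240000000 read 0.11, -0.47 and -0.59 in K562 and -0.16, 0.05, -1.02 and -0.10 in U2OS, so the lines covered the same range. The difference was -0.01 (SE 0.31, limma adjusted p = 0.987). The TWIST2 probe on the array labelled 44k is another sequence than on the other 6 arrays. A substitute value replaced its dim late signal, so its value of -1.01 there is a bound. The same holds for the probe of the larger design on the second manual array, at 1.34. On probes the difference was -0.98 (SE 0.45) and did not pass (limma adjusted p = 0.206). It shrank to -0.34 with normexp and -0.24 with no background correction. The 2 larger K562 arrays placed TWIST2 at the end of an early domain of 1500 to 1600 kb that reached it from lower coordinates, and the other 5 arrays in late domains of 200 to 1600 kb. On the old-sorting array the smoothed value at the gene was only 0.0027, so its early sign there is not settled.

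The width of the late domain at TWIST1 was the clearest difference of width. It spanned 5100, 5000 and 2800 kb on the K562 arrays and 9400, 15100, 15400 and 15400 kb on the U2OS arrays. Every U2OS domain was longer than every K562 domain. The mean difference was 9525 kb, with an exact two-sided permutation p of 0.0571, the smallest that 3 against 4 arrays can give, and 0.343 after adjustment over the 9 genes. The extension lay towards lower coordinates, where the domain ran 1900 to 2100 kb from the gene in K562 and 6200 to 12100 kb in U2OS. On the other side, windows 1000 and 1250 kb beyond TWIST1, which hold MACC1 and ITGB8, were called earlier in K562, by 1.29 (SE 0.44, limma adjusted p = 0.0498) and 1.26 (SE 0.35, limma adjusted p = 0.0221).

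For no other of the 9 genes did the exact test of width fall below 0.171. A width is the length of a run of either sign, so at MSX2 and SOX9 the lines were compared over domains of different sign on 3 of 4 U2OS arrays. Signs were also mixed at TWIST2, where 2 K562 arrays and 0 U2OS arrays gave an early domain, and at RUNX2, where 1 U2OS array did. At SOX9 the K562 arrays gave a late domain of 3700 to 4200 kb, 3 U2OS arrays an early domain of 1600 to 1800 kb, and the first manual array a late domain of 3700 kb that ended at the gene. The median over the 9 genes of the mean width difference, U2OS minus K562, was 41.7 kb, and its sign was not stable: it was -267 kb with mean centring and ranged from -233 to 200.0 kb when 1 array was left out, the lowest without the first automated array.

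SNAI2, a repressor that drives cells out of epithelial sheets, lay where the order of the lines turned over. Its own window, chr8:49750001-50000000, read -0.94, -0.57 and -0.42 in K562 and between -1.15 and -0.86 in U2OS, with a difference of 0.40 (SE 0.22) that did not pass (limma adjusted p = 0.195). In the window before it, which holds EFCAB1, K562 was late at -1.69 ± 0.34 (SD, n = 3) and U2OS early at 0.60 ± 0.28 (SD, n = 4), and the window was called at -2.29 (SE 0.25, limma adjusted p = 0.000132). In the window after it the order was turned, with K562 between 0.08 and 1.26 and U2OS between -2.29 and -1.66, and that window had too few probes for the test. The rise in K562 was local: 500 kb beyond the gene's window K562 was late again, at -1.23 ± 0.27 (SD, n = 3). That window was not tested either. The late domain at SNAI2 spanned 800 to 5300 kb in K562 and 3900 to 17200 kb in U2OS (exact two-sided permutation p = 0.171), and reached 500 to 600 kb below the gene in K562 and 100 kb in U2OS. On both larger K562 arrays this domain, drawn on the smoothed profile, ran through the window after the gene, although that window read above 0 unsmoothed. Its length there thus depends on the smoothing. The comparison depended on the window: at 500 kb, which takes in the EFCAB1 side, the difference was -1.14 and passed (limma adjusted p = 0.00427).

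Ordered by the mean of their windows, the genes ran in U2OS from MSX2 (0.49) through SOX9 (0.17), RUNX2 (-0.16), TWIST2 (-0.31), TBX3 (-0.42), SNAI2 (-1.04), TWIST1 (-1.41) and DLX5 (-1.89) to PRRX1 (-2.10). Of the 8 steps in that order only the step from TBX3 to SNAI2 was larger than the SD over arrays of both neighbours. In K562 the order was RUNX2 (0.25), TWIST2 (-0.32), SNAI2 (-0.64), MSX2 (-1.61), TWIST1 (-1.95), SOX9 (-2.12), DLX5 (-2.19), TBX3 (-2.31) and PRRX1 (-2.38). There the steps from RUNX2 to TWIST2 and from SNAI2 to MSX2 exceeded the SD of both neighbours, and no step among the last 6 genes did.

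Handling within U2OS moved some of the same windows. Automated minus manual, 5 of the 10 windows were called, 2 as earlier and 3 as later on the automated arrays. Over the genome 16.2% of 11176 windows were called, 4.14% earlier and 12% later, and the median difference was -0.16. MSX2 and SOX9 were earlier on the automated arrays, by 1.096 (SE 0.17, limma adjusted p = 0.00907) and 0.70 (SE 0.19, limma adjusted p = 0.0393). DLX5, RUNX2 and TWIST1 were later on them, at -0.83 (SE 0.19, limma adjusted p = 0.0235), -0.69 (SE 0.19, limma adjusted p = 0.0451) and -0.75 (SE 0.17, limma adjusted p = 0.0225). TBX3 read -0.44 on the manual and -0.40 on the automated arrays. At MSX2 and SOX9 the manual means, -0.05 and -0.18, still lay above every K562 array. Both manual arrays shared a slide, so handling and slide cannot be told apart, and without the first automated array no window of the 10 was called (4 at an unadjusted limma p under 0.05), and without the second only that of MSX2 was.

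A list of 40 related genes put the 9 in context: partners and relatives of the RUNX, SOX, DLX, PRRX, SNAI, TBX and TWIST factors, with other limb, skull and mesenchyme regulators. Of the 38 with a probe, 6 were called earlier in K562, 1 earlier in U2OS and 31 did not pass, beside 5.80% and 7.07% of all gene names. The median difference of the list was -0.03, and -0.15 over all gene names. The 7 calls depended on the background treatment, with 4 under normexp and 2 with no background correction.

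The largest differences in the list went the other way from MSX2, SOX9 and TBX3. PAX9, a paired box factor of the vertebral column and teeth, read 1.85 and 2.10 on the larger K562 arrays, -0.17 on the array labelled 44k and between -2.61 and -1.61 in U2OS, so that K562 minus U2OS was 3.20 (SE 0.54, limma adjusted p = 0.00507). ZEB2, a zinc finger repressor of epithelial genes that is also active in blood progenitors, differed by 2.82 (SE 0.37, limma adjusted p = 0.00174), with K562 between 0.54 and 1.88 and U2OS between -1.52 and -1.19. MEF2C, SOX5, TCF4 and SOX6 were also earlier in K562, by 1.35 to 2.01. SOX5 and SOX6 are the partners of SOX9 in cartilage. The calls of PAX9 and ZEB2 held under both background alternatives, at 1.21 to 1.82 and 1.43 to 1.86, that of TCF4 with normexp, and those of MEF2C, SOX5 and SOX6 under neither.

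The 1 gene called earlier in U2OS was DLX2, a relative of DLX5 in the head skeleton, with K562 between 0.18 and 0.72, U2OS between 1.40 and 1.88, and K562 minus U2OS at -1.06 (SE 0.29, limma adjusted p = 0.0425). That call was lost with normexp (-0.29) and with no background correction (-0.31). Unlike DLX5 it was early in both lines. RUNX1, RUNX3 and CBFB, the blood relatives and the shared partner of RUNX2, did not pass, nor did TBX2, TBX4, TBX5, TBX15 or TBX18.

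**Figure D4:**
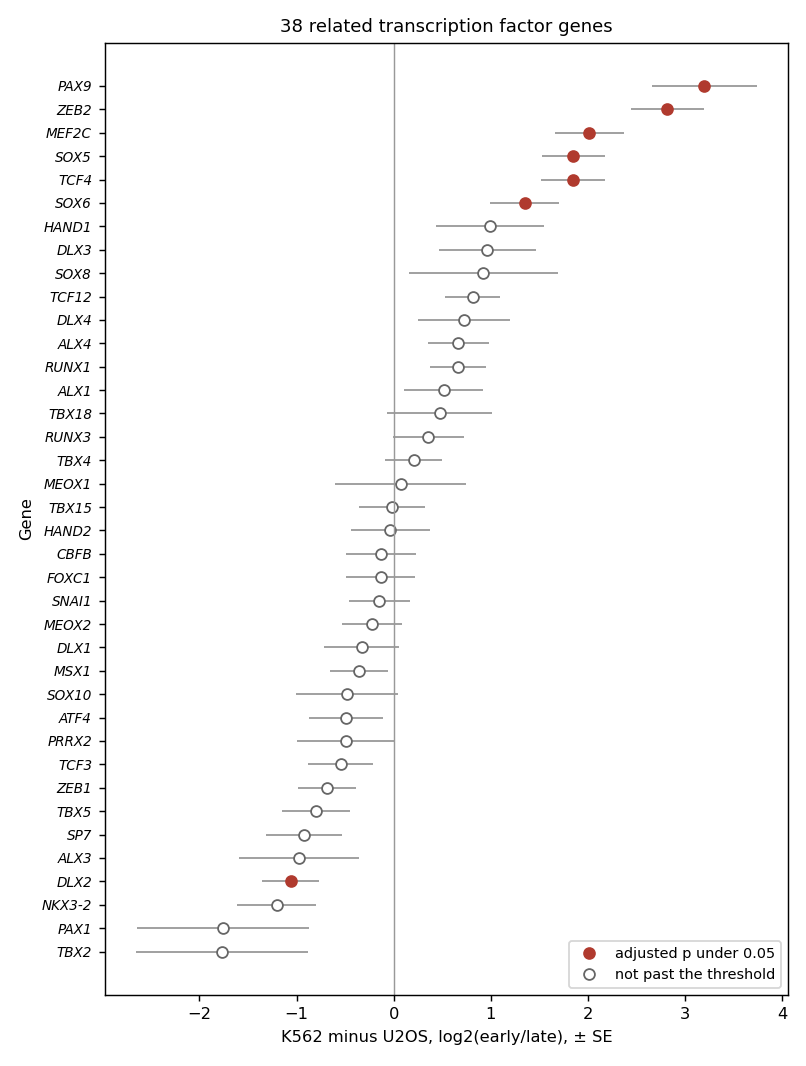
Difference in log2(early/late), K562 minus U2OS, with its SE, for 38 related transcription factor genes. Filled points passed an adjusted p under 0.05: 6 lie to the right (earlier in K562, up to 3.20 at PAX9) and 1 to the left (DLX2).

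Genes on other chromosomes with the most similar pattern were sought over the 6 arrays of the larger design, by the mean absolute difference of their probe averages, among genes with at least 3 probes. For SOX9 they were VCAN (0.18), which encodes a matrix proteoglycan, C21orf91 (0.18) and PCSK5 (0.23), a proprotein convertase, where the median over 10914 candidates was 1.55. VCAN read -1.51 in K562 (mean of the 2 larger arrays) and -0.26 in U2OS. For RUNX2 they were DNAJC10 (0.07), APBA1 (0.16) and ENST00000381569 (0.16), beside a median of 1.14. For TWIST1 they were ENST00000519314 (0.19), TTC21B (0.26) and ENST00000507203 (0.26), beside 2.86.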

How the data were processed

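Agilent Feature Extraction 11.5.1.1 wrote the deposited tables, per the file headers, with protocol CGH_1105_Oct12 on build hg19. The submitters' processing notes name version 9.1. Each deposited table gives spot intensity per channel, which per the file headers was background-subtracted and dye-normalized by that software, and a log10 ratio of late over early. The 6 larger arrays had 180880 features and the array labelled 44k had 62976. Here log2(early/late) was taken from the processed intensity of each channel and centred on the array's median over chromosomes 1 to 22 and X. This differs from normexp with an offset of 50, which was an alternative. Control and non-uniform spots were left out, saturated spots were kept, and spots of a probe were averaged. Every array carried the early fraction in Cy3, and without a swapped array a dye effect stays in the ratio.

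Probes were averaged in 250-kb windows (at least 3 per array) or by gene name, and lines were compared over 3 and 4 arrays with limma 3.58.1 in R 4.3.3 (lmFit, eBayes, Benjamini-Hochberg over all windows or genes). Widths used an exact two-sided permutation test over arrays. The steps were tested on simulated data: of windows shifted by 1 log2 unit 35.0% were recovered over 8912 windows, and 97.0% of those shifted by 2. For 24647 gene names the shares were 1.00% and 46.0%. Only 100 windows or gene names were shifted at each size, a far smaller share than was called in the real data. The adjusted threshold depends on that share, so these recoveries do not give those of the real fit. A probe average that missed the threshold is still no sign of equal timing.

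Named genes were all members with a probe, the 2 related genes per direction with the largest called difference and lines that did not overlap, and the 3 genes nearest in pattern to RUNX2, SOX9 and TWIST1. Other related genes and neighbours named were chosen after their values were seen. A gene of the related list is not reported here and was left out of its counts. The members and lists were chosen with earlier results of these data known. The numbers in the titles of the manual and automated arrays did not pair them (correlation of deviations -0.05). Exon, intron and UTR positions on hg19 were not used here. The number of arrays limits the precision, and per-spot depth has no meaning for them.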

Additional observations from a re-analysis of the deposited data

Results flagged for a closer look

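Among the 28 sets of 4 U2OS values examined for the 9 genes (probe averages, windows and domain widths), 5 had an array far from the other 3 by Dixon's criterion. Chance gives about 5% of sets only where values are normal and sets independent. Widths move in 100-kb steps and can tie, and sets of the same gene share probes, so that rate is no yardstick here. In the PRRX1 window the first automated array read -2.23, against -2.06 to -2.04 on the others. The DLX5 domain was 3600 kb on the second manual array and 4700 kb on the others. The SOX9 domain was 3700 kb on the first manual array, where its sign was late, and at most 1800 kb on the others. The TBX3 domain was 1300 kb on the second manual array and 1900 kb or more on the others. The TWIST1 domain was 9400 kb on the first manual array and at least 15100 kb on the others. Manual arrays gave 4 of the 5, and the part of handling and of the shared slide was not tested.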

How the results depend on the processing

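The calls of MSX2 and SOX9 as earlier in U2OS held in every alternative that tested their 250-kb window, though the differences shrank with no background correction (to -1.32 and -1.14, and -0.86 at TBX3), and TBX3 in each of 18 (its window had too few probes without dim spots or with at least 5 probes). The count of called windows was 3 and stayed within 1.5 times that except with 500-kb windows (5 of 10) and with at least 5 probes per window (1 of 5, SOX9), and ranged from 3 to 4 when 1 array was left out. On the genes' own probes 2 were called, and 1 to 3 when 1 array was left out. In the related list the 7 calls fell to 4 with normexp and 2 with no background correction, with 5 to 7 when 1 array was left out. The median width difference of 41.7 kb became -267 kb with mean centring, -200.0 kb with normexp, 567 kb with a running mean over 3 windows and 646 kb with 250-kb windows, and ranged from -233 to 200.0 kb when 1 array was left out, so its sign is not settled. RUNX2's width difference of 883 kb became -600.0 kb with mean centring, -1283 kb with normexp and -633 kb without the first automated array. Between manual and automated U2OS, 5 of 10 windows were called, 8 with normexp, 2 with loess, 2 without spots dim in both channels, and 0 to 5 when 1 array was left out. With the replicate number as a block the count was 5 as well, and 2695 against 1805 windows over the genome, where normexp gave 8124, leaving out dim spots 939 and leaving out an automated array 256 or 572. Over the genome the called windows fell from 2814 to 1872 with normexp and 1468 with no background correction, and the called gene names from 3172 to 1257 with the latter and to 1937 to 2078 without the new-sorting K562 or an automated array. The share of called gene names earlier in K562 moved from 45.1% to 35% with normexp and 33.1% with no background correction, and rose to 53.9% without spots dim in both channels and 51.1% with mean centring.

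The sign of some differences changed. TWIST2's window (-0.01) became 0.046 with normexp, 0.055 with no background correction, 0.29 with loess, 0.080 with mean centring, 0.10 without dim spots, 0.075 with the manual arrays averaged (added after seeing the data) and 0.17 at 500 kb, and ranged from -0.25 to 0.13 when 1 array was left out. DLX5's probes (0.04) became -0.15 with normexp, -0.31 with loess and -0.22 to 0.38 when 1 array was left out. TWIST1's window (-0.54) became 0.019 with no background correction, PRRX1's -0.52 to 0.10 when 1 array was left out, RUNX2's -0.22 at 500 kb, and SNAI2's -1.14 at 500 kb and -0.17 at 100 kb. The slide as a random block was not run, because 6 slides over 7 arrays leave it inestimable. The cause of these changes was not tested.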
